A study of Mus musculus with 8 samples.

Results

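The propeptidases that trim procollagen, and the proteins that enhance them, were examined in cultured mouse tail tendon fibroblasts with and without the gene Scx. The members are the 7 genes Adamts2, Adamts3, Adamts14, Bmp1, Tll1, Pcolce and Pcolce2, taken by symbol from a deposited table of 24982 genes. All 7 were in the table and all 7 passed the filter on low counts. The product of Scx, scleraxis, is a tendon transcription factor of the basic helix-loop-helix class, and the series compares mRNA in its presence and absence. There were 4 libraries of genotype Scx+ (ScxWT, replicates 2, 3, 5 and 6) and 4 of genotype Scx- (ScxKO, replicates 2, 3, 4 and 5), all from C57Bl/6 cells that received 4HT, and the groups therefore share that treatment. The labels do not give the animals' age, the part of Scx that was deleted, or what drove the deletion.

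Fibrillar collagens are secreted as procollagens with a globular extension, or propeptide, at each end. ADAMTS2, ADAMTS3 and ADAMTS14 are the procollagen N-proteinases and cut off the amino-terminal propeptide. BMP1 and its relative tolloid-like 1, the product of Tll1, are C-proteinases and cut off the carboxy-terminal propeptide, a step that lets the molecules assemble into fibrils. The products of Pcolce and Pcolce2 bind the C-propeptide and speed its removal without cutting it themselves. Loss of ADAMTS2 causes dermatosparaxis, a fragile-skin disorder of animals and people.

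All 7 genes had a lower mean without Scx, and for each of them no Scx-deleted library reached the lowest Scx-positive one. Groups that did not overlap in this direction were found in 14.3% of the 13125 tested genes. With edgeR's quasi-likelihood test and Benjamini-Hochberg adjustment over all tested genes, 5 of the 7 (71.4%) fell at an adjusted p under 0.05 and 0 rose, against 14.5% of tested genes called lower and 14.0% called higher. The 5 were Adamts3, Adamts2, Tll1, Pcolce and Bmp1, while Adamts14 and Pcolce2 did not pass. The members' median log2 change was -0.22, against -0.01 for all tested genes. When Scx-deleted replicate 3 or, separately, 5 was left out, 3 members passed, since Bmp1 and Pcolce then missed the threshold.

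Upstream sequences of the members are shown because scleraxis, like other proteins of its class, binds E-boxes, the motif CANNTG, which reads as the same pattern on both strands. RefSeq sequences on GRCm38.p6 were matched for 6 of the 7 members by symbol, and the 250 bases before the RefSeq start were searched. The gene spans given further below are from GENCODE, and the starts can differ. With RefSeq starts at 137611404 and 64206008, the windows of Pcolce and Tll1 lie inside their GENCODE spans, which reach 137613784 and 64206271. Those of Adamts14, Pcolce2 and, by its last base, Adamts2 overlap theirs in part. Distances below are to the RefSeq start. The 3 members with the largest falls and Pcolce, the member with the highest level, are printed 5′ to 3′ on the gene's strand, with E-boxes in capitals. Adamts3 lies at chr5:89883335-89883584 (minus strand), Adamts2 at chr11:50601835-50602084 (plus strand), Tll1 at chr8:64206009-64206258 (minus strand) and Pcolce at chr5:137611405-137611654 (minus strand).
Adamts3: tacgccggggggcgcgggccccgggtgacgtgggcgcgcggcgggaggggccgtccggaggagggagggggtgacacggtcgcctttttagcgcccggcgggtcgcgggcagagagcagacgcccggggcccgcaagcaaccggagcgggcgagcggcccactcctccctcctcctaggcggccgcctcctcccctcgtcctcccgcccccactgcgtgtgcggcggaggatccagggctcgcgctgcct
Adamts2: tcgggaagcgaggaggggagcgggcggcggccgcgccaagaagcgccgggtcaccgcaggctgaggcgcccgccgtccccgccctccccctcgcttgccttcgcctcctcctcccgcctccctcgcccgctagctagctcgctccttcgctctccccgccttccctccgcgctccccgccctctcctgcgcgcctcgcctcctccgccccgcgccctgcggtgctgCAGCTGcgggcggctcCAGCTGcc
Tll1: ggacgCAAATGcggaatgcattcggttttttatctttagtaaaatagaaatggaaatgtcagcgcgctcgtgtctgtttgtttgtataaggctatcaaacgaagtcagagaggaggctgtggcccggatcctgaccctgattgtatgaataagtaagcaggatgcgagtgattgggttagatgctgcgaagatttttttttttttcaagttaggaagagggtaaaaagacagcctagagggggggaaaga
Pcolce: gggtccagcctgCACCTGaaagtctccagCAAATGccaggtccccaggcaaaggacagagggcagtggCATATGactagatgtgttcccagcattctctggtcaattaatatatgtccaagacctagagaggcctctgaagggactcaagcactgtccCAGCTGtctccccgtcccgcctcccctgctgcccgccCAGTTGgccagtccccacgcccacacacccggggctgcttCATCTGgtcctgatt

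The member with the largest fall, Adamts3, held 0 E-boxes in this window. Adamts2 held 2, both CAGCTG and both within 24 bases of the start. Tll1 held 1, CAAATG, which began 245 bases before the start. Pcolce held 6, the nearest of them a CATCTG that began 15 bases before the start. Pcolce2 held 1, a CAGCTG that began 119 bases before its start, and Adamts14 held 0. At least 1 E-box was found in 4 of the 6 members, in 66.2% of the 32841 promoters of the table and in 57.1% of the 13155 promoters of tested genes. The windows of Adamts2 and Adamts3 were each 78.0% G and C, that of Tll1 43.2% and that of Pcolce 58.8%, against a median of 60.0% for tested genes. A match describes these letters only.

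The libraries held between 17343228 and 25180790 gene counts. Scx was at 7.92 ± 1.52 CPM (counts scaled to the library total by TMM) with the gene and 0.112 ± 0.0461 CPM without it (SD, n = 4 each), so the labels and the deleted gene went together. Tendon fibroblast markers were present in both groups, with a summed level of 9223 to 11763 CPM in Scx-positive and 6484 to 7256 CPM in Scx-deleted libraries, and 8 of 9 fell. The second principal component, with 12.9% of the variance, set Scx-positive replicate 5 apart from the rest of its group. Defining genes of other cell types were near 0: over all 8 libraries Ptprc had 8 counts, Pecam1 36, Sp7 9, Acan 2 and Myod1 0. The summed levels of 3 further marker lists did not overlap between the groups. The macrophage list went from 19.9 to 22.7 CPM up to 23.0 to 26.6 CPM, with 2 of 4 tested genes higher. The mural list went from 262 to 322 CPM up to 387 to 409 CPM, mostly Cspg4, with 1 of 4 higher and 1 lower. The endothelial list went from 68.3 to 86.3 CPM down to 48.4 to 53.9 CPM, mostly Tek, with 1 of 3 higher and 1 lower. The part of these shifts in the results below was not tested, and in bulk samples fewer cells of a type and less RNA per cell cannot be told apart.

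Among the N-proteinases, Adamts3 fell most. ADAMTS3 also activates the lymphatic growth factor VEGF-C, with the help of CCBE1. Adamts3 (ENSMUSG00000043635.12, GRCm38 chromosome 5, 89677087 to 89883334, minus strand) had 93, 67, 138 and 73 counts in Scx-positive replicates 2, 3, 5 and 6, and 37, 35, 29 and 33 in Scx-deleted replicates 2, 3, 4 and 5. Scaled for depth these were 4.03, 3.59, 5.55 and 3.19 CPM against 1.87, 1.64, 1.68 and 1.48 CPM. Scx-positive replicate 5 was the highest library, and even the lowest Scx-positive library was well above the highest Scx-deleted one. The log2 change was -1.31 ± 0.18 (SE, edgeR adjusted p = 7.52e-05), rank 42 from the largest fall among 13125 tested genes. Without Scx-positive replicate 5 the log2 change was -1.11 (edgeR adjusted p = 1.14e-05).

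Adamts2, the N-proteinase with the highest level of the 3, fell by a smaller factor. The gene (ENSMUSG00000036545.8, chromosome 11, 50602084 to 50807573, plus strand) stood at 89.3, 90.6, 115 and 80.1 CPM in Scx-positive replicates 2, 3, 5 and 6. In Scx-deleted replicates 2, 3, 4 and 5 it stood at 62.0, 63.8, 58.5 and 71.1 CPM. Replicate 5 was the highest library within each group. The mean was 31.9% lower without Scx, with a log2 change of -0.55 ± 0.09 (SE, edgeR adjusted p = 0.000238). Without Scx-positive replicate 5 the log2 change was -0.43 (edgeR adjusted p = 3.05e-06).

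Adamts14, the remaining N-proteinase, differed least. The gene (ENSMUSG00000059901.12, chromosome 10, 61197112 to 61273438, minus strand) stood at 18.7, 18.4, 20.6 and 20.9 CPM in Scx-positive replicates 2, 3, 5 and 6. Its Scx-deleted replicates 2, 3, 4 and 5 held 18.3, 16.9, 18.3 and 17.6 CPM. The groups did not overlap, but the highest Scx-deleted library was just below the lowest Scx-positive one. The log2 change of -0.15 ± 0.07 (SE) did not pass the test (edgeR adjusted p = 0.113), and a correction for transcript GC content and length gave -0.07.

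Both C-proteinase genes fell, Tll1 by the larger factor. Tll1 (ENSMUSG00000053626.5, chromosome 8, 64014931 to 64206271, minus strand) stood at 12.5, 12.3, 11.1 and 13.0 CPM in Scx-positive replicates 2, 3, 5 and 6. Scx-deleted replicates 2, 3, 4 and 5 held 8.81, 9.64, 9.35 and 8.50 CPM. Here Scx-positive replicate 5 was the lowest of its group, unlike for the other 4 genes that fell. The log2 change of Tll1 was -0.43 ± 0.08 (SE, edgeR adjusted p = 0.000954), a mean 25.8% lower.

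Bmp1 makes both BMP1 and its longer splice form, mammalian tolloid, which counts per gene do not separate. The gene (ENSMUSG00000022098.10, chromosome 14, 70474558 to 70520234, minus strand) stood at 245, 236, 291 and 247 CPM in Scx-positive replicates 2, 3, 5 and 6. Scx-deleted replicates 2, 3, 4 and 5 held 232, 217, 231 and 222 CPM. Apart from the high Scx-positive replicate 5, the groups lay close to each other. The log2 change was -0.18 ± 0.06 (SE, edgeR adjusted p = 0.0266), a mean 11.6% lower. Without Scx-positive replicate 5 it was -0.10 (edgeR adjusted p = 0.0298). Leaving out Scx-deleted replicate 3 gave a log2 change of -0.16 (edgeR adjusted p = 0.0788), and leaving out Scx-deleted replicate 5 gave -0.17 (0.0759).

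**Figure D1:**
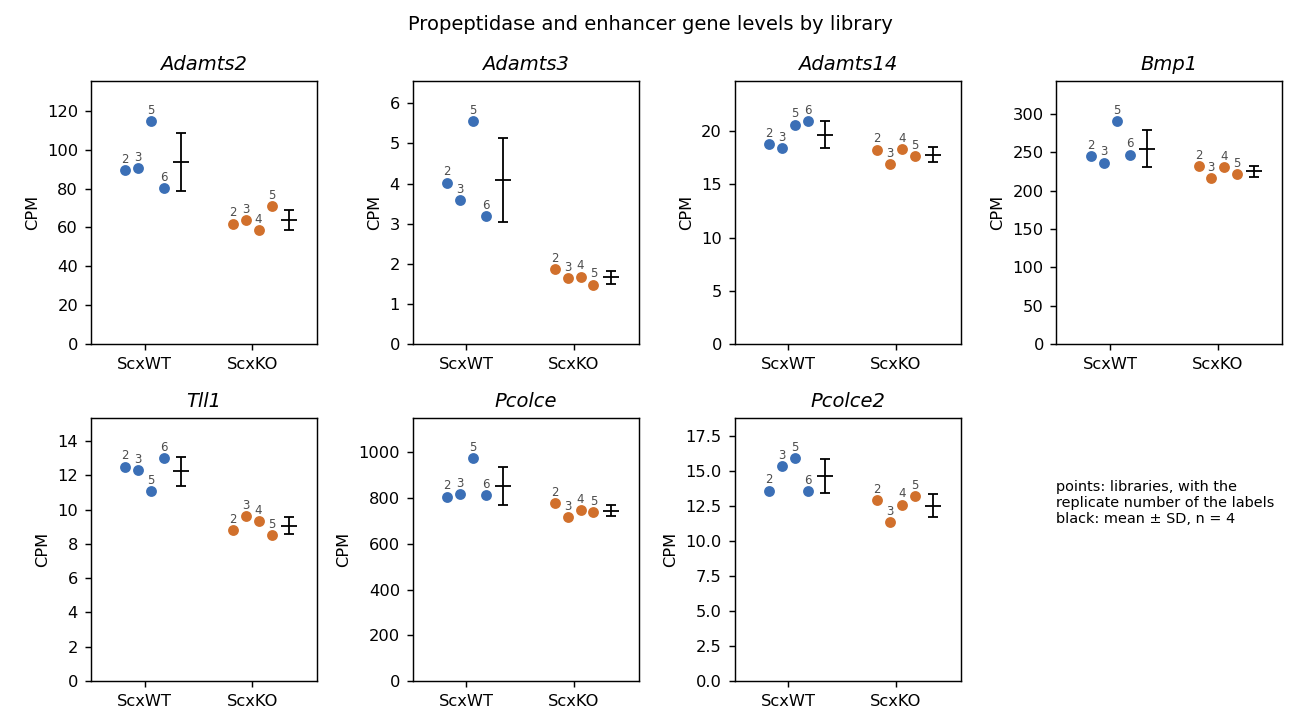
Levels of the 7 genes in CPM (vertical axes start at 0) in the 4 Scx-positive (ScxWT, blue) and 4 Scx-deleted (ScxKO, orange) libraries, each point marked with its replicate number and black bars giving mean ± SD. The groups do not overlap for any gene, with the widest relative gap for Adamts3 and narrow gaps for Adamts14, Bmp1 and Pcolce2.

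The enhancer genes were lower by about as much as Bmp1. Pcolce encodes procollagen C-proteinase enhancer 1, and its gene (ENSMUSG00000029718.14, chromosome 5, 137605103 to 137613784, minus strand) stood at 806, 819, 976 and 814 CPM in Scx-positive replicates 2, 3, 5 and 6. Scx-deleted replicates 2, 3, 4 and 5 held 778, 717, 749 and 739 CPM. Scx-positive replicate 5 stood far above the other 3, which lay within a narrow range. The log2 change was -0.20 ± 0.06 (SE, edgeR adjusted p = 0.0173), a mean 12.7% lower. Without Scx-positive replicate 5 it was -0.12 (edgeR adjusted p = 0.0123), and without Scx-deleted replicate 3 or 5 the adjusted p was 0.0571 or 0.0505. Of the exon bases of Pcolce, 112 (2.93%) are shared with Fbxo24 on the same strand, so counts there are uncertain.

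Pcolce2, which encodes enhancer 2, missed the threshold narrowly. The gene (ENSMUSG00000015354.8, chromosome 9, 95637601 to 95698096, plus strand) stood at 13.6, 15.4, 15.9 and 13.6 CPM in Scx-positive replicates 2, 3, 5 and 6. Scx-deleted replicates 2, 3, 4 and 5 held 12.9, 11.4, 12.6 and 13.2 CPM. The lowest Scx-positive and the highest Scx-deleted library were close. The log2 change was -0.22 ± 0.08 (SE, edgeR adjusted p = 0.0505). It passed in 5 of 16 alternative fits, among them upper-quartile scaling (edgeR adjusted p = 0.0323) and the fit without Scx-positive replicate 6 (0.0451).

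**Figure D2:**
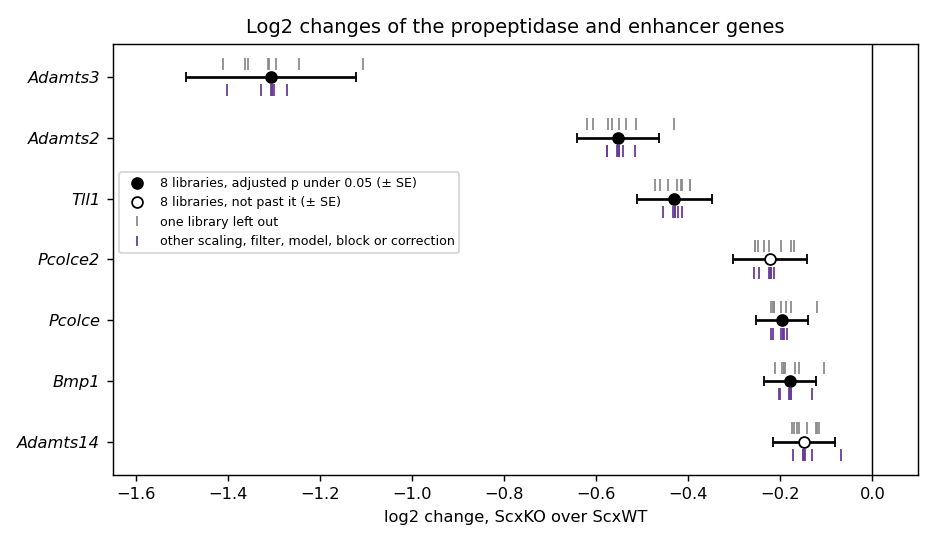
Log2 change of Scx-deleted over Scx-positive cells for each gene (horizontal axis), with circles and bars for the fit of all 8 libraries ± SE, filled where the adjusted p was under 0.05. Grey ticks leave out one library and purple ticks use another scaling, filter, model, block or correction; every tick lies below 0, and Adamts3 is far to the left of the others at -1.31.

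Levels can be compared between genes once divided by length, here as CPM per kilobase of the union of a gene's exons. On that scale Pcolce was the highest member, at 223 ± 21.4 in Scx-positive and 195 ± 6.69 in Scx-deleted cells (SD, n = 4 each). Bmp1 followed at 28.7 ± 2.73 and 25.4 ± 0.827, and Adamts2 at 10.03 ± 1.58 and 6.84 ± 0.571. Adamts14 stood at 3.79 ± 0.246 and 3.42 ± 0.131, close to Pcolce2 at 3.16 ± 0.262 and 2.71 ± 0.176. Tll1 was at 1.58 ± 0.107 and 1.17 ± 0.0661, and Adamts3 was the lowest at 0.753 ± 0.191 and 0.307 ± 0.0295. No neighbours in this order overlapped in range within either group, and the order was equal in both groups and also with the longest transcript as the length. The closest neighbours were Adamts14 and Pcolce2, 1.20-fold apart in Scx-positive and 1.26-fold apart in Scx-deleted cells. The distance from Tll1 to Adamts3 was 2.09-fold with Scx and 3.80-fold without it. By union exon length Pcolce lay between the type I chains and Col3a1 in Scx-positive cells. Col1a1 was at 597 ± 77.2, Col1a2 at 273 ± 25.9 and Col3a1 at 165 ± 20.3. By the longest transcript Pcolce was at 332 in Scx-positive cells, and its place among the collagen chains was not read on that length.

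**Figure D3:**
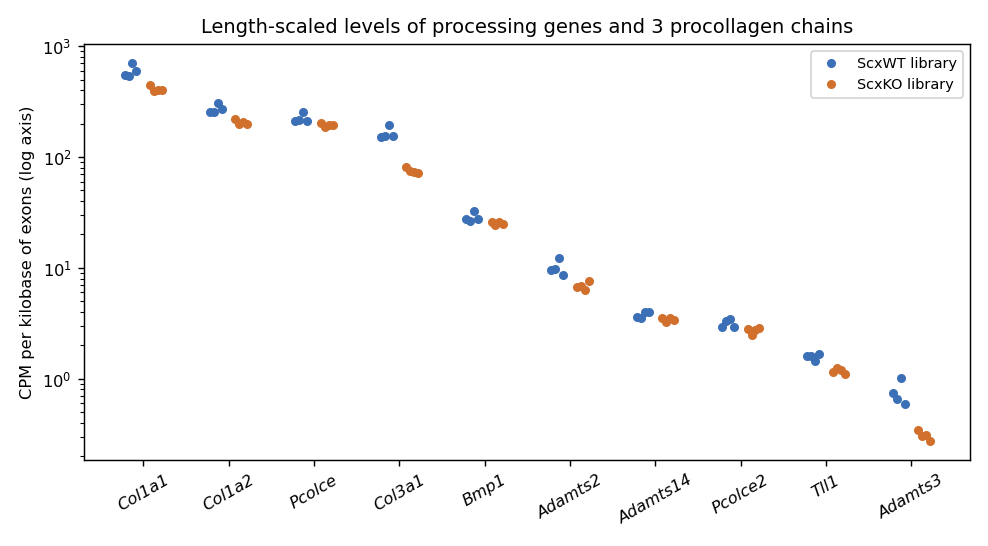
CPM per kilobase of exons (log axis) of the 7 genes and 3 procollagen chains in each Scx-positive (blue) and Scx-deleted (orange) library, ordered by the Scx-positive mean. Pcolce lies among the collagen chains, and Adamts3 is lowest in both groups.

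The make-up of each class was read within each library from these length-scaled levels, as a description with no test. Adamts2 gave 68.7% ± 2.61 of the summed N-proteinase level with Scx and 64.6% ± 2.49 without it (SD, n = 4 each), and the groups overlapped. The Adamts3 share went from 5.11% ± 0.653 to 2.92% ± 0.366, with 4.45% the lowest Scx-positive and 3.28% the highest Scx-deleted value. The Adamts14 share was 26.2% ± 3.15 and 32.4% ± 2.18, with overlap through Scx-positive replicate 6 at 30.5% and Scx-deleted replicate 5 at 30.1%. Bmp1 made up 94.8% ± 0.719 and 95.6% ± 0.311 of the C-proteinase level, and Pcolce 98.6% of the enhancer level in both groups, each with overlap. The ratio of Tll1 to Bmp1 was 5.83%, 5.95%, 4.36% and 6.03% in Scx-positive replicates 2, 3, 5 and 6 and from 4.34% to 5.09% in Scx-deleted libraries. Scx-positive replicate 5 alone brought the groups into overlap there.

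The summed N-proteinase level was then divided by the summed C-proteinase level in each library, again with no test. The N-to-C ratio was 0.475, 0.493, 0.505 and 0.447 in Scx-positive replicates 2, 3, 5 and 6, and 0.385, 0.404, 0.371 and 0.433 in Scx-deleted replicates 2, 3, 4 and 5. Every Scx-deleted library had a lower N-to-C ratio than every Scx-positive one. Since Adamts2 and Bmp1 make up most of the 2 sums, this ratio largely restates their unequal falls given above. Among single tested genes, 29.1% had groups that did not overlap in either direction. The enhancer-to-C ratio was 7.47 ± 0.197 with Scx and 7.45 ± 0.119 without it (SD, n = 4 each), and these groups overlapped.

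Set against procollagen mRNA, whose type I and III chains also fell, the processing genes had unequal ratios. N-proteinase level per 1000 of Col1a1 was 24.4 ± 1.59 with Scx and 25.7 ± 2.10 without it (SD, n = 4 each), with overlap. C-proteinase level per 1000 of Col1a1 was 50.9 ± 2.33 and 64.6 ± 3.02, and enhancer level 381 ± 19.3 and 481 ± 17.0, with no overlap for either. Per 1000 of Col3a1 the ratios of all 3 classes were higher without Scx in every library. Col3a1 itself fell to 0.455 of its Scx-positive mean and Col1a1 to 0.689. The summed levels fell to 0.725 for N-proteinases, 0.876 for C-proteinases and 0.873 for enhancers. A gene with no change would also have a higher ratio to either collagen, so the higher ratios are not rises of the processing genes. C-proteinase level per 1000 of Col3a1 was 192, 182, 175 and 189 in Scx-positive replicates 2, 3, 5 and 6. It was 337, 347, 368 and 367 in Scx-deleted replicates 2, 3, 4 and 5, a mean 1.92 times as high. N-proteinase level per 1000 of Col3a1 was 88.5 ± 2.92 and 141 ± 12.3. These are ratios of mRNA, and protein or enzyme activity was not measured here.

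**Figure D4:**
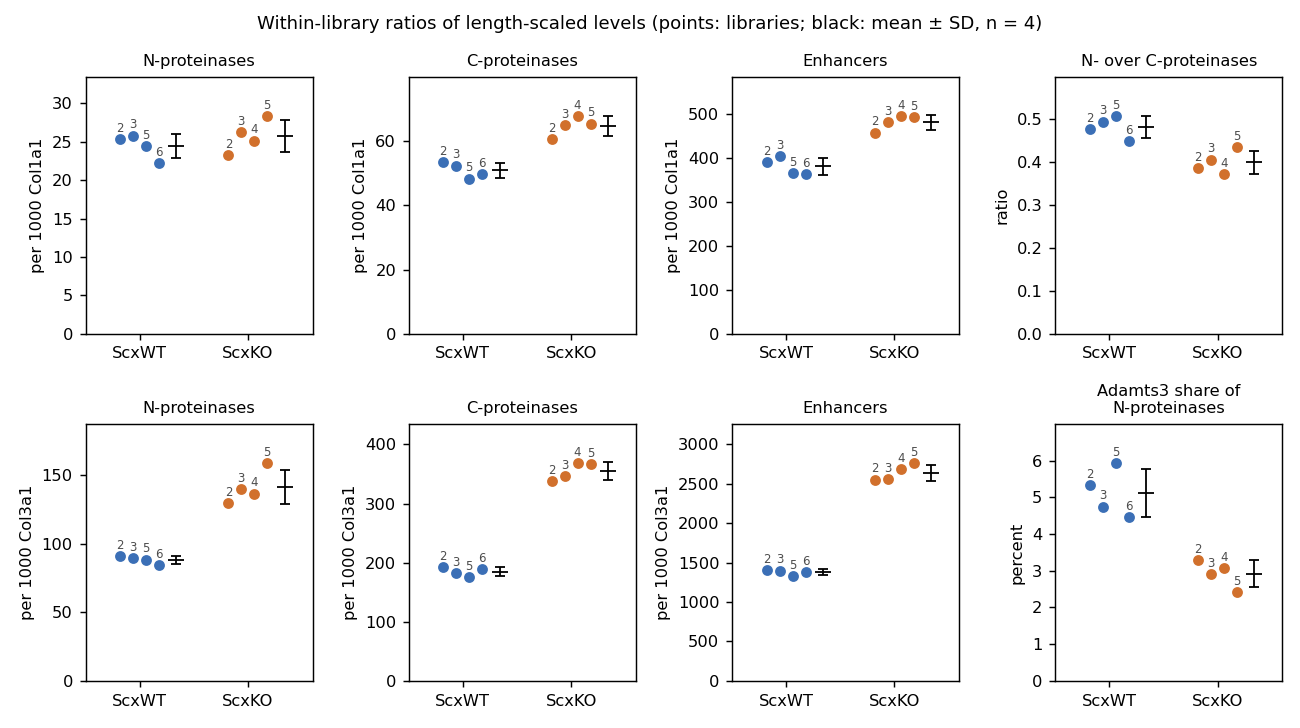
Ratios of length-scaled levels within each library, as summed class level per 1000 of Col1a1 (top row) or Col3a1 (bottom row), the N-to-C-proteinase ratio and the Adamts3 share in percent, with points marked by replicate number and mean ± SD in black. C-proteinase and enhancer ratios to both collagens are higher in every Scx-deleted library, while N-proteinase per Col1a1 overlaps between the groups. Both collagens were themselves lower without Scx.

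Fibrillar procollagen chains, the substrates of these enzymes, were mostly lower without Scx. Of 11 fibrillar procollagen chains, all tested, 8 fell and 0 rose, with a median log2 change of -0.47. The changes were -1.14 for Col3a1, -0.92 for Col24a1, -0.85 for Col11a1, -0.54 for Col1a1, -0.53 for Col5a3, -0.47 for Col5a1, -0.40 for Col1a2 and -0.18 for Col5a2. Col11a2 (-0.40), Col27a1 (-0.21) and Col2a1 (-0.16) did not pass. Col5a2 missed the threshold without Scx-deleted replicate 3 or 5 (edgeR adjusted p = 0.0554 or 0.0603). Col24a1 missed it when Scx-positive replicate 2 (0.0689) or Scx-deleted replicate 3 (0.0535) was left out and with DESeq2 (0.0544). Col11a2 passed without Scx-deleted replicate 2 (edgeR adjusted p = 0.0388). Col27a1 ranged from -0.42 without Scx-deleted replicate 4 to -0.08 without Scx-positive replicate 5.

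Other proteins cut by BMP1-type proteinases went both ways. Of 14 such genes 13 were tested, 4 fell and 3 rose. Ogn, a small leucine-rich proteoglycan, changed by -1.20 and the lysyl oxidase gene Lox by -0.25 on the log2 scale. Gdf11, a TGF-beta family ligand, rose by 0.31. The remaining gene, Mstn, had 8 counts over all libraries and was not tested. Of 7 proprotein convertases and matrix partners of BMP1, 2 fell and 0 rose. Pcsk6, a convertase that activates secreted precursors, changed by -0.37, and Postn, the gene of periostin, by -0.25. Leaving out Scx-positive replicate 5 made 1 of these 7 pass as higher, and Postn was at -0.09 and did not pass after the correction for GC content and length.

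Among 4 partners of the N-proteinases 1 fell and 1 rose. Timp3, whose product inhibits ADAMTS2, changed by -0.15 and Ccbe1 rose by 0.15. Timp3 missed the threshold without Scx-deleted replicate 2 or 5 (edgeR adjusted p = 0.0566 or 0.0833). Ccbe1 missed it with Scx-positive replicate 6 left out (0.0774), with any 1 Scx-deleted library left out (edgeR adjusted p from 0.0540 to 0.0844) and with upper-quartile scaling (0.0688), among the fits without a replicate block.

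Relatives of the members within their protein families were lower more often than higher. Of 16 other ADAMTS genes 11 were tested, and 8 fell and 0 rose, with a median log2 change of -0.39. Those with the smallest p were Adamts5 (-0.63) and Adamts1 (-0.53), both proteinases of large proteoglycans, then Adamts8 (-0.86) and Adamts9 (-0.63). None of the 4 other astacin proteinases, the family of BMP1, was tested, because each had 0 to 5 counts over all 8 libraries, so Bmp1 and Tll1 were the astacins with measurable mRNA. Of 7 ADAMTS-like genes, which lack a protease domain, 5 were tested, 3 fell and 0 rose. They were Adamtsl1 (-1.42), Adamtsl4 (-0.69) and Thsd4 (-0.38). Thsd4 missed the threshold when any 1 of Scx-positive replicates 2, 5 and 6 or Scx-deleted replicates 2, 3 and 4 was left out, with edgeR adjusted p from 0.0575 to 0.123. It also missed it with DESeq2 (adjusted p = 0.0798). Without Scx-positive replicate 5, 1 ADAMTS-like gene passed as higher.

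Genes for the steps before and after propeptide removal were read in the same way. Of 20 genes for folding and export of procollagen inside the cell 8 fell and 1 rose, with a median of -0.10. P4ha3, a prolyl hydroxylase subunit, changed by -0.87, the transcription factor gene Creb3l1 by -0.48, P3h4 by -0.32 and the COPII coat gene Sec24d by -0.21. No gene of this list passed as higher without Scx-deleted replicate 4. Of 5 cross-linking enzymes 2 fell and 0 rose, Loxl2 (-0.45) and Lox, and Lox stands in the list of BMP1 substrates too. These counts stand beside 14.5% lower and 14.0% higher among all tested genes.

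**Figure D5:**
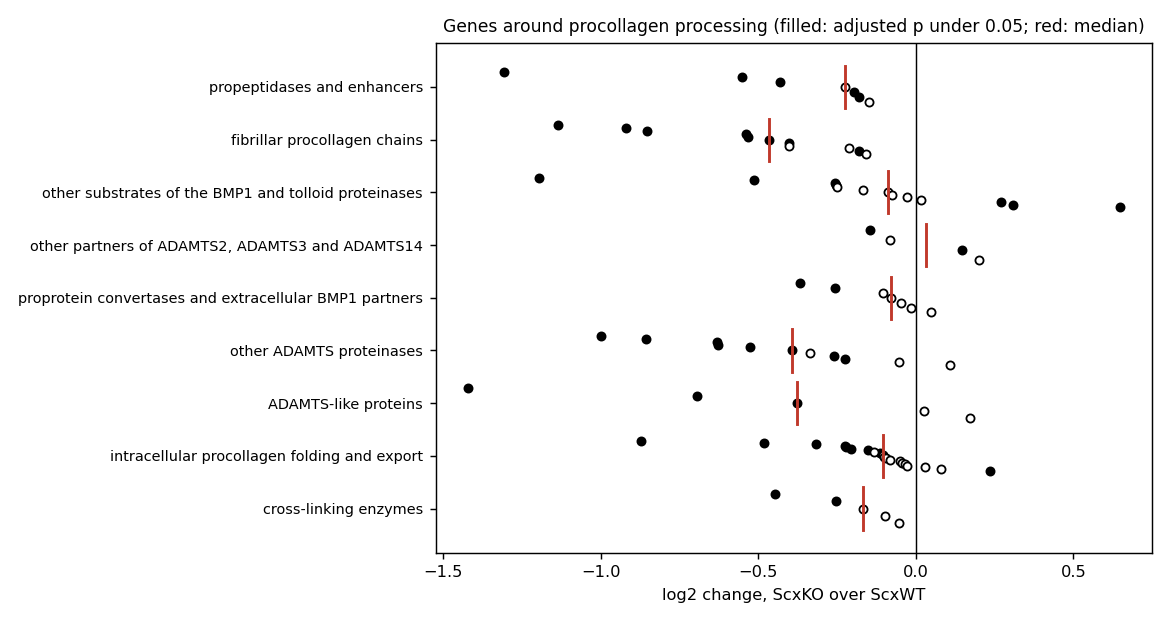
Log2 change of Scx-deleted over Scx-positive cells for each tested gene (points, filled where the adjusted p was under 0.05) in the 7-gene set and in 8 lists around it, with red bars for medians. Filled points all lie below 0 for the 7 genes and for the fibrillar chain, other ADAMTS, ADAMTS-like, convertase and cross-linking lists. They lie on both sides for other BMP1 substrates, N-proteinase partners, and folding and export genes.

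Genes whose pattern over the 8 libraries was most like each member were found by the root mean square difference of log2 CPM about each gene's mean, among 11288 genes averaging 2 CPM or more. Since this measure includes the difference between the groups, it mainly picks genes that changed by a like amount. For Adamts3 the nearest were Gas1 (0.13), Col3a1 (0.14) and Smpd3 (0.15), where the median gene was at 0.65. For Adamts2 they were Sardh (0.03), Nrbp2 (0.07) and Chrd (0.07), against a median of 0.32. Chrd encodes chordin, a BMP antagonist cut by BMP1-type proteinases. The genes nearest to Tll1 were Spag5 (0.04), Mcm4 (0.05) and Rrm1 (0.05), with a median of 0.25. Bmp1 was nearest to Mgat1, Dctn1 and Pcif1, each at 0.02, with a median of 0.16. Pcolce was nearest to Impdh1, Mgat1 and Bmp1, each at 0.03, with a median of 0.17, but was not itself among the 3 genes nearest to Bmp1. Adamts14 was nearest to Ppp1r13b (0.02), Tubb4b (0.03) and Anxa6 (0.03), and Pcolce2 to Zbtb5, Smim19 and Hdac11 (each 0.04). Among the members Adamts3 lay farthest from the rest, at 0.38 from Adamts2 and up to 0.58 from Adamts14.

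The authors' deposited table gives their own comparison, with a log2 fold change of -5.94 for Scx. In the authors' deposited table an adjusted p under 0.05 was given for 5 of the 7 members. The share of its 14511 genes under that threshold was not taken, so no background stands beside this count. The log2 fold changes in the authors' deposited table were -1.37 for Adamts3, -0.58 for Adamts2, -0.45 for Tll1, -0.27 for Pcolce and -0.17 for Bmp1, all below that threshold. Adamts14 (-0.17, adjusted p = 0.0698 in the authors' deposited table with DESeq2 named by the submitters) and Pcolce2 (-0.19, adjusted p = 0.113 there) were not. The 5 genes past the threshold were those that passed with edgeR on the deposited counts. Which counts the authors' deposited table rests on was not given in the sources used here. Its mean signal was 1.27 times the mean normalized count of the deposited counts at the median gene but 1.76 times for Pcolce, so the deposited counts with 1 common scaling do not give that table. Both comparisons come from the same series, so the shared calls are no independent evidence.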

How the data were processed

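RNA of 8 libraries of cultured mouse tail tendon fibroblasts was sequenced, 4 ScxWT and 4 ScxKO, grouped by title. STAR, FastQC, DESeq2 and mm10 are named, per the submitters' processing notes. What each did, their versions, the read counter, the gene models and any use of strand were not given in the sources used here. The authors deposited raw counts per gene symbol. Counts in no feature (7.44% to 8.67%) and ambiguous counts (0.490% to 0.567%) were left out. The authors' deposited comparison holds a mean signal, a log2 fold change with its error and statistic (scores) and a p-value. It names no group, so its direction was read from its signs against the deposited counts.

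The tests ran in edgeR 4.0.16 under R 4.3.3. There filterByExpr (minimum count 10, total 15) left 13125 genes, TMM scaled the libraries, and a quasi-likelihood fit had group as its only term. Calls were made at a Benjamini-Hochberg adjusted p under 0.05. Each standard error is the size of a log2 change over the square root of its F. CPM used TMM factors, and log2 CPM a prior count of 2. Lengths and positions came from GENCODE M21 on GRCm38, which matched 24498 of 24982 symbols.

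The members and the gene lists were chosen with earlier results of these data known. Named were the members, Scx, every tested fibrillar procollagen chain, up to 4 called genes with the smallest p of each other list, and the 3 most alike genes of each member, leaving out predicted genes; 1 gene that this rule names is not reported here. Mstn, Fbxo24 and single marker genes of other cell types were named after their values were seen.

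The alternatives comprised upper-quartile and RLE scaling, no filter, at least 5 CPM in 4 libraries, limma-voom (limma 3.58.1), DESeq2 1.42.0, the replicate number as a block, a correction for transcript GC content and length (mgcv 1.9.3), the longest transcript as length, and each library left out. On simulated counts of 13059 genes for this comparison the fit recovered 71.9% of 64 genes changed 1.25-fold and 100% of 65 changed 1.5-fold, with 7.14% of calls false. Changes were planted only in genes with higher mean counts, with a common spread for all genes and no deviant library. Changes below 1.25-fold, such as those of Bmp1 and Pcolce, were not simulated, and the share of false calls may differ in the real libraries. Since the labels do not say whether libraries stem from separate animals or cultures, p-values measure only how far these libraries spread, which may be technical.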

Additional observations from a re-analysis of the deposited data

Results flagged for a closer look

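In 10 of 118 groups of 4 values, 1 library stood far from the other 3, where chance gives about 5% for separate groups; 9 of the 10 were Scx-positive replicate 5. These groups are not separate: the Bmp1 share, the Tll1 share and the ratio of Tll1 to Bmp1 restate 1 quantity, and the enhancer sum is almost all Pcolce, so the count cannot be read against that rate. Among the 14 groups of member levels this was 1, Pcolce, which reached 976 CPM in Scx-positive replicate 5 while the rest of that group held 806 to 819 CPM. The summed length-scaled level of the enhancers was 259 there, against 214 to 218. In the same library Bmp1 made up 95.8% of the C-proteinase level and Tll1 4.17%, with 94.3% to 94.5% and 5.51% to 5.68% in the other 3, and the ratio of Tll1 to Bmp1 was 4.36%. Col3a1 (1914 CPM), Pcsk6 (194 CPM), Adamtsl4 (117 CPM) and Creb3l1 (75.8 CPM) were also high in Scx-positive replicate 5. Col1a1 was high in Scx-deleted replicate 2, where it reached 2961 CPM while the rest of that group held 2594 to 2637 CPM.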

How the results depend on the processing

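All 111 alternative fits of the 7 members kept the sign of the log2 change, and 102 kept the side of the threshold. Adamts2, Tll1 and Adamts3 passed in each of theirs (16, 16 and 15 fits; the filter of 5 CPM removed Adamts3), Bmp1 and Pcolce in 14 of 16 each, and Adamts14 in 0 of 16. Pcolce2 passed with upper-quartile scaling at -0.25, the filter of 5 CPM at -0.23, the replicate block at -0.26 and the correction for GC content and length at -0.21. With 1 library left out, log2 changes ranged from -1.41 to -1.11 for Adamts3, -0.62 to -0.43 for Adamts2, -0.18 to -0.12 for Adamts14, -0.21 to -0.10 for Bmp1, -0.47 to -0.40 for Tll1, -0.22 to -0.12 for Pcolce and -0.26 to -0.17 for Pcolce2, and 3 to 6 members passed as lower. The correction for GC content and length gave 2816 genes higher against 1842, 2 N-proteinase partners and 2 folding genes higher, 1 ADAMTS-like gene higher and 1 convertase or BMP1 partner lower. No filter gave 1 ADAMTS-like gene higher, and upper-quartile scaling 0 N-proteinase partners higher. Leaving out 1 library gave 0 to 1 N-proteinase partners in each direction, and 0 to 1 higher in each of the convertase, ADAMTS-like and folding lists. Col2a1, which did not pass, ranged from -0.51 (without Scx-deleted replicate 3) to 0.0024 (without Scx-deleted replicate 5), its lone change of sign. The cause of these shifts was not tested.

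Replicate numbers 2, 3 and 5 occur in both groups, but deviations of same-numbered libraries correlated at -0.060, 0.156 and 0.057 over genes, and not every library correlated best with its own number. The replicate block gave 1561 genes higher and 1676 lower, 6 members lower, and 0 folding genes higher. Among the other named genes Col27a1 passed under the block (-0.45, edgeR adjusted p = 0.0369), and Ccbe1 (0.0792), Thsd4 (0.0897), Tubb4b (0.0861) and Pcif1 (0.0705) missed the threshold there. Length by the longest transcript moved no class ratio between the groups by more than 1 SD. Depth limits Adamts3 most, with 29 to 138 counts per library.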

Other observations

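In the authors' deposited table the mean signal of Pcolce was 1.76 times the mean normalized count computed from the deposited counts, higher than for 94.2% of 13110 genes in both, where the median ratio was 1.27. The ratio was 1.24 to 1.31 for the other 6 members. The log2 fold change of Pcolce was -0.27 in the authors' deposited table and -0.20 in the fit of the deposited counts.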
